A study of Mus musculus with 6 samples.

Results

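Opposite-strand transcripts are genes named after a neighbouring gene that lies on the other DNA strand, and their symbols carry the ending os (opposite strand). Rows of the deposited expression table were taken as members where the symbol ended in os, or os and 1 digit, and the symbol without that ending had at least 3 characters and was itself a row, the partner gene. This gave 39 members among 14986 rows, each with 1 partner of its own. A further 21 symbols with the ending were outside the rule, because the remaining stem was too short, as in Fos, or was no row of the table, as in Nrros. The rule used names only and no measured value.

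The libraries hold RNA of sorted long-term haematopoietic stem cells (LT-HSC), the rare self-renewing marrow cells from which all blood lineages derive, taken from mouse bone marrow that had been depleted of mature cells. There were 3 libraries labelled wild type and 3 labelled Zcchc8 KO, each from 1500 sorted cells and from polyadenylated RNA. Strain, age, sex, the kind of KO allele and whether it is confined to blood cells were not given in the sources used here. Nor is it said that the replicates were separate animals, so a p-value here reflects only how much these samples vary, which may be technical. The comparison asks what the loss of ZCCHC8 does to the transcriptome of these cells.

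Antisense and divergent transcription is common in mammalian genomes. Many promoters fire in both directions, and the transcript that runs away from the coding gene is often short-lived. ZCCHC8 holds together the nuclear exosome targeting (NEXT) complex, which joins the helicase MTREX and the RNA-binding protein RBM7 and hands such transcripts, among them promoter upstream RNAs, to the RNA exosome for decay. Named opposite-strand genes are a mixed set by position. Some start near the start of the partner, and others lie inside it, meet it at the ends or end near it. Some encode small proteins. Their stability, and whether NEXT acts on them, was not measured here.

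Values are FPKM, fragments scaled to gene length and to library depth, which allow levels to be compared between genes. The reads behind them, recovered from FPKM and exon length, came to 18059318 to 25709663 per library, and the deepest was KO library 1. For the members, all 209 values above 0 came out as whole reads within 0.05. Every library had a median correlation of about 0.93 with the other 5 over tested genes, so none stood apart. Zcchc8 itself was 8.93, 5.24 and 5.16 FPKM in the wild type against 10.4, 5.54 and 5.92 FPKM in KO. The groups overlapped, and a value summed over all exons cannot show the loss of single exons, so directions below are those of the libraries labelled KO. All 9 stem cell markers read were above the filter of a mean of 1 FPKM, with a summed level of 363 to 430 FPKM in the wild type against 285 to 336 FPKM in KO. Markers of other blood cells differed between the groups. The 7 neutrophil markers had the largest sums, at 2687 to 2892 FPKM in the wild type against 3593 to 4008 FPKM in KO. Of these markers 1 was higher by the test. The 4 monocyte and dendritic cell markers in the table summed to 119 to 149 and 238 to 276 FPKM, with 2 higher. Sums of T and NK cell, megakaryocyte, and mast cell and basophil markers were also higher in every KO library. The 5 eosinophil markers in the table summed to 1.05 to 3.25 FPKM in the wild type against 170.4 to 210.9 FPKM in KO, with 4 higher by the test. The 8 erythroid markers summed to 115 to 149 and 436 to 465 FPKM, with 4 higher, and the 6 B cell markers to 804 to 918 and 63.3 to 90.4 FPKM, with 1 lower. None of the markers that were in the table was at 0 in all wild-type libraries. The part of these cells in the values below was not tested, and in bulk samples fewer cells of a type and less RNA per cell cannot be told apart.

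The label opposite strand held for every member. In the GENCODE M21 annotation of GRCm38, 39 of 39 pairs lay on opposite strands and within 10000 bp of each other, over 14 chromosomes. Of these, 25 overlapped, 8 stood head to head with starts at most 1000 bp apart and no overlap, and 6 were near neighbours. Within the 25 overlapping pairs, the starts overlapped in 13, the ends in 5, and 1 gene lay inside the other in 7. The biotype was antisense in 24 members, lincRNA in 4, processed transcript in 4 and bidirectional promoter lncRNA in 1, while 6 were annotated as protein coding, among them Brd3os, Cdiptos, Cebpzos, Slc7a6os and Wdr83os. Exons of the member covered exons of its partner in 22 pairs, up to 52.3% of the member's exon bases in Wdr83os. Use of strand in the counting is not given in the sources used here. If strand was not used, reads of the member and of its partner in those exons cannot be told apart. Counting every other annotated gene, 25 members had shared exon bases. Exon length ran from 430 to 8306 bases with a median of 2522.

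The sequences between the starts of a member and its partner could be read for 6 pairs whose RefSeq starts face away from each other. They are shown for 3, chosen after the values were seen: Map2k3os and Etaa1os, whose difference from the partner separated the groups, and Appbp2os, which had an unadjusted p under 0.05. RefSeq start windows matched 30 of the 39 members (GRCm38.p6). Each line gives the bases between the starts, read 5′ to 3′ on the partner's strand, so that the partner begins after the last base and the opposite-strand transcript runs off before the first base on the other strand. Capitals mark matches to GGGCGG, the GC box bound by SP1 family factors, to the CCAAT box, and to TGACGTCA, the palindromic cAMP response element. All were searched on both strands, so that a GC box can appear as its complement, and the response element was added after the sequences had been seen. A search was also made for the TATA box, spelled TATAAA. The GENCODE starts of the Etaa1 pair bound the same stretch, those of the Map2k3 pair are 166 bp apart, and those of Appbp2os and Appbp2 overlap.
Map2k3os and Map2k3, chr11:60931868-60932053, plus strand: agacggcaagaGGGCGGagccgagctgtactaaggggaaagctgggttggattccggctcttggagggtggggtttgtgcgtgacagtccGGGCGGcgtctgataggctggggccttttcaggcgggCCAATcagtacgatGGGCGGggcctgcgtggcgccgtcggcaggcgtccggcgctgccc
Etaa1os and Etaa1, chr11:17953876-17953969, minus strand: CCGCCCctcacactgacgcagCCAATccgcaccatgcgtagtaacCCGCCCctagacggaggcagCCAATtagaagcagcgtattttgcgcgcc
Appbp2os and Appbp2, chr11:85235121-85235165, minus strand: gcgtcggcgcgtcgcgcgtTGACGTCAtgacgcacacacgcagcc

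The 186 bases between Map2k3os and Map2k3 were 67.7% GC with 18 CpG dinucleotides, 3 matches to GGGCGG and 1 to CCAAT. Of 27025 RefSeq promoters, 30.8% held GGGCGG and 28.8% held CCAAT in the 186 bases before the start, and the median GC content was 53.2%. The 94 bases between Etaa1os and Etaa1 were 61.7% GC and held 2 matches to each of these motifs, where 24.4% of promoters held GGGCGG and 18.7% CCAAT in a stretch of that length. The 45 bases between Appbp2os and Appbp2 were 71.1% GC with 10 CpG dinucleotides and held 1 TGACGTCA, which 0.566% of promoters held in 45 bases. Because TGACGTCA was added to the search after these sequences had been seen, that share cannot be read as enrichment. The 3 stretches not shown differed: that of Wdr83os was 45.8% GC, below the promoter median of 52.8%, with 1 CCAAT and no GC box, that of Stamos was 72.7% GC with no match, and that of Mkln1os was 77.8% GC with 1 GC box. None of the 6 held a TATA box. A match describes letters and is no evidence of binding.

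Levels of the 39 members spread over a wide range, from a mean of 0.251 FPKM for Tomm6os to 55.1 FPKM for Epb41l4aos, with a median of 2.90 FPKM. The table as a whole had a median of 4.89 FPKM. The noncoding Epb41l4aos stood at 53.8, 59.4 and 59.3 FPKM in the wild type against 48.8, 72.2 and 37.3 FPKM in KO. It carries an annotated small nucleolar RNA inside its body on the same strand. Wdr83os encodes a small protein of a membrane protein insertion complex of the endoplasmic reticulum. It varied little, at 36.95, 40.3 and 39.1 FPKM in the wild type against 36.3, 41.1 and 45.1 FPKM in KO. Next came Cebpzos with a mean of 15.8 FPKM, Zbtb11os1 with 13.8, Foxd2os with 12.04, Oip5os1 with 11.96, Pigbos1 with 11.7, Brip1os with 11.3 and Plxna4os1 with 11.1 FPKM. Oip5os1, also called Cyrano, is a conserved RNA known for directing the decay of the microRNA miR-7, and Pigbos1 encodes a microprotein of the mitochondrial outer membrane.

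Many members were present in some libraries and at 0 in others. At least 1 library was at 0 in 17 of 39 members and in 17.9% of all rows of the table. Among members above the filter this held for 6 of 26, against 5.13% of all tested genes. The spread within groups was also wide. The median within-group SD on the log2(FPKM + 1) scale was 0.49 for the 26 members, 0.33 for the 31 partners above the filter and 0.34 for all 11837 tested genes. Brd3os, a small protein-coding gene downstream of the bromodomain gene Brd3, shows the extreme: it was at 0.175, 6.22 and 6.24 FPKM in the wild type against 11.0, 3.64 and 0 FPKM in KO, or 6, 216 and 224 reads and 538, 131 and 0 reads. Each group thus held libraries with over 100 reads and a library with 6 reads or none. Zeros and wide spread were not particular to the members. At least 1 library was at 0 in 31 of 79 tested antisense genes outside the members, with a median SD of 0.68. This held for 23 of 88 other lincRNAs (0.57), 7 of 23 other bidirectional promoter lncRNAs (0.74) and 9 of 75 other processed transcripts (0.53). Small nucleolar RNA host genes were steadier, with 1 of 11 and 0.21.

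**Figure D1:**
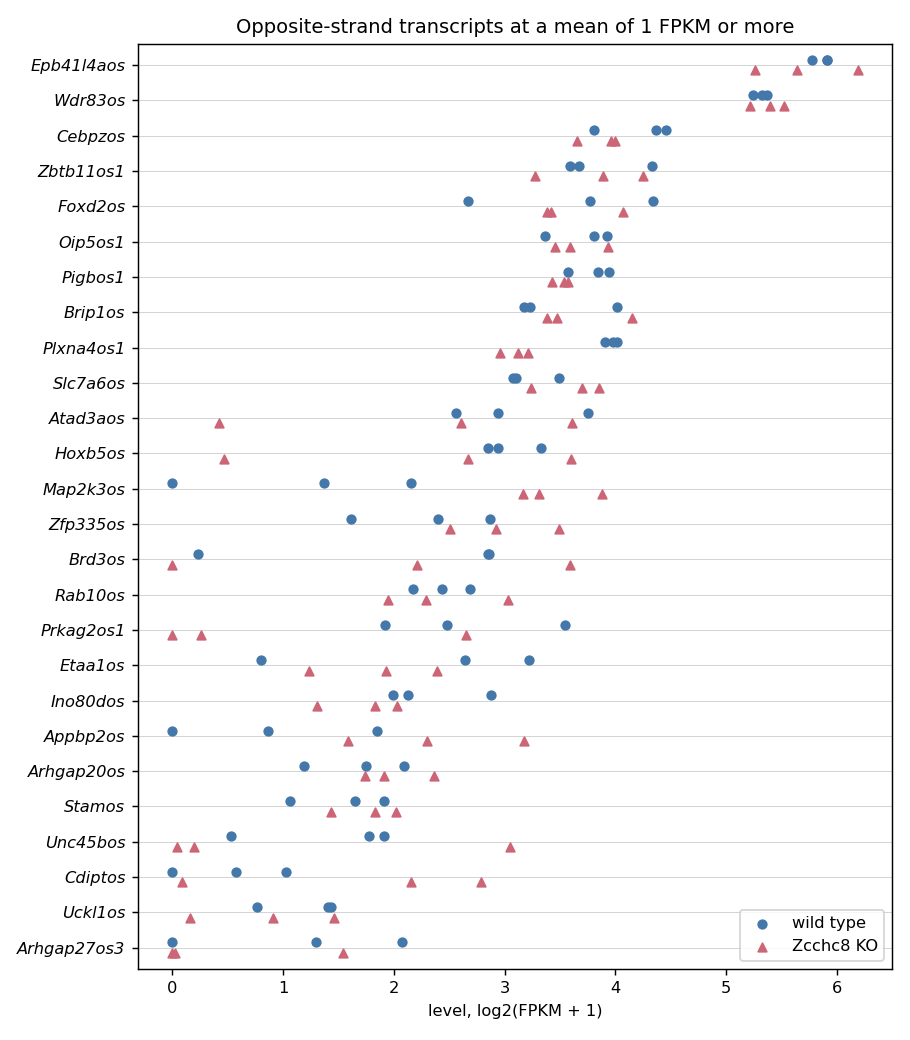
Level of the 26 opposite-strand transcripts with a mean of at least 1 FPKM, on the log2(FPKM + 1) scale, with 1 point per library (circles, 3 wild type; triangles, 3 Zcchc8 KO), ordered by mean level. For Map2k3os and Plxna4os1 the circles and triangles do not overlap; for the other 24 they do.

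KO and wild type were compared in limma on log2(FPKM + 1) over all 11837 genes whose mean reached 1 FPKM, and the adjusted p-values below are Benjamini-Hochberg values over all of them. No member passed an adjusted p of 0.05, where 0.228% of all tested genes did. At an unadjusted p of 0.05, 4 of the 26 tested members differed, 2 higher and 2 lower in KO, beside 9.2% of all tested genes (4.87% higher, 4.33% lower). The groups did not overlap for 2 of the 26, beside 15.2% of all tested genes: 1 member was higher and 1 lower, where 8.24% and 6.99% of all tested genes were. By value 10 were higher and 16 lower, where 50.2% of all tested genes were higher, with a median log2 change of -0.053 beside 0.0021 over all tested genes. The summed level of all 39 members was 250.2, 260.5 and 275.4 FPKM in the wild-type libraries and 253.9, 265.3 and 235.8 FPKM in the KO libraries, and the groups overlapped.

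Among the head-to-head members, Map2k3os had the largest difference, and by size also among all 26 tested members. It starts 166 bp from Map2k3, the gene of a kinase that activates p38 MAP kinase, in the other direction (chromosome 11, 60920917 to 60931867, minus strand, antisense biotype), and its exons touch no annotated exon of another gene. It was at 1.59, 0 and 3.44 FPKM in the wild type against 7.98, 8.90 and 13.8 FPKM in KO. Every KO library was above every wild-type library. These values stand for 37, 0 and 84 reads in wild type and 265, 218 and 370 reads in KO. The mean was 6.10-fold higher in KO, with a log2 change of 2.28 ± 0.52 (SE) and a limma adjusted p of 0.18 (unadjusted 0.00182). Map2k3 itself stood at 34.8, 33.1 and 27.1 FPKM in the wild type against 38.6, 28.5 and 31.3 FPKM in KO, with groups that overlap and a log2 change of 0.046 ± 0.18.

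The other head-to-head members did not separate the groups. Etaa1os, beside the gene of the ATR activator ETAA1, was at 8.34, 5.24 and 0.741 FPKM in the wild type against 2.82, 4.25 and 1.35 FPKM in KO. Atad3aos, next to the gene of a mitochondrial ATPase, ran from 4.90 to 12.5 FPKM in the wild type against from 0.341 to 11.2 FPKM in KO. Brip1os, which runs away from the gene of the Fanconi anaemia helicase BRIP1, lay between 8.02 and 15.2 FPKM in the wild type against between 9.45 and 16.7 FPKM in KO. Foxd2os, beside the forkhead factor gene Foxd2, had means of 12.4 ± 6.92 and 11.7 ± 3.57 FPKM (SD, n = 3). Stamos was at 1.996 ± 0.848 and 2.44 ± 0.686 FPKM. Of the 6 tested members of this arrangement 4 were higher and 2 lower in KO by value, with a median log2 change of 0.11.

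Among the tested overlapping members, Plxna4os1 was the 1 whose groups did not overlap. It lies inside Plxna4, the gene of a semaphorin receptor, on the other strand (chromosome 6, 32511073 to 32515576, plus strand, antisense biotype), and its exons overlap no annotated exon. Wild-type libraries stood at 14.0, 15.2 and 14.8 FPKM and KO libraries at 7.73, 6.78 and 8.26 FPKM, or 500, 549 and 553 reads against 393, 254 and 340 reads. All KO libraries were lower, and the ratio of means was 1.93. The log2 change was -0.87 ± 0.21 (SE), with a limma adjusted p of 0.208 (unadjusted 0.00266). Plxna4 was close to 0, at 0.228, 0.531 and 0.210 FPKM in the wild type against 0, 0.0860 and 0.187 FPKM in KO, so that per length the opposite-strand transcript was the more abundant of the pair in all 6 libraries.

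A further pair of tested overlapping members had an unadjusted p under 0.05, each with groups that overlap. Appbp2os, whose start overlaps that of the adaptor gene Appbp2 in GENCODE, was at 0, 2.60 and 0.821 FPKM in the wild type against 3.92, 8.03 and 2.003 FPKM in KO, which gives a log2 change of 1.45 ± 0.56 (SE) with a limma adjusted p of 0.483. In this transcript 34.5% of the exon bases are also exon of Appbp2, which stood at 7.20, 9.72 and 8.23 FPKM in the wild type against 9.76, 12.5 and 12.5 FPKM in KO. Both genes of the pair were higher by value in KO. For Appbp2 every KO library was above every wild-type library, the closest at 9.76 against 9.72 FPKM. Prkag2os1, inside the gene of the gamma 2 subunit of AMP-activated kinase, was at 2.79, 4.58 and 10.7 FPKM in the wild type against 0, 5.27 and 0.194 FPKM in KO, which gives a log2 change of -1.68 ± 0.71 with a limma adjusted p of 0.521. KO library 2 was within the wild-type range and the other KO libraries were near 0. Prkag2 stood at 4.39 ± 0.702 FPKM in the wild type against 3.77 ± 0.236 FPKM in KO (SD, n = 3), with groups that overlap and a log2 change of -0.17 ± 0.28 (SE).

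The remaining tested overlapping members gave ranges that crossed. Hoxb5os, antisense to the homeobox gene Hoxb5, known as a marker of long-term stem cells, was at 6.21, 9.03 and 6.69 FPKM in the wild type against 11.1, 0.379 and 5.38 FPKM in KO. Zfp335os had means of 4.22 ± 2.12 and 7.16 ± 2.82 FPKM (SD, n = 3), Ino80dos 4.24 ± 1.86 and 2.36 ± 0.821, and Rab10os 4.45 ± 0.973 and 4.64 ± 2.24. Zbtb11os1 was at 13.99 ± 4.45 and 13.5 ± 4.71 FPKM. Cdiptos, which runs away from the phosphatidylinositol synthase gene Cdipt and overlaps its start, was at 0.492, 1.03 and 0 FPKM in the wild type against 5.90, 0.0611 and 3.47 FPKM in KO, so that KO library 2 lay with the wild type. The mean of log2(FPKM + 1) was lower in KO for all 5 tested members nested with their partner, where 50.2% of all tested genes were higher, with a median log2 change of -0.79. This count rests on single libraries: Hoxb5os was at 0.097 without KO library 2, and Unc45bos at 0.22 without KO library 1 and 0.14 without KO library 3. The mean FPKM of Unc45bos was higher in KO, at 2.48 against 1.87 FPKM. Without the filter 6 of the 7 nested members were lower and Zeb2os was higher, at 0.44. The 8 tested members whose starts overlap were split evenly, 4 higher and 4 lower.

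The remaining protein-coding members and the neighbours without overlap, with a few others, follow. Slc7a6os, the gene of a factor in nuclear import of RNA polymerase II that ends near the amino acid transporter gene Slc7a6, was at 8.42 ± 1.56 FPKM in the wild type against 11.3 ± 2.58 FPKM in KO (SD, n = 3). Cebpzos stood at 17.9 ± 4.31 and 13.7 ± 1.85 FPKM. Pigbos1 was at 14.4, 10.9 and 13.3 FPKM in the wild type against 9.78, 10.6 and 10.9 FPKM in KO, where the highest KO library only just reached the lowest wild-type library. Oip5os1, with 1415 to 2355 reads per library, had a log2 change of -0.039 ± 0.25 (SE), at 12.2 ± 2.54 and 11.8 ± 2.22 FPKM.

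The 13 members with a mean under 1 FPKM were not in this test. They were read by value and, without the filter on low values, over all 14986 rows, where again no member passed an adjusted p of 0.05 in limma (0.127% of rows did). At an unadjusted p of 0.05, 2 of the 39 were higher and 4 lower, beside 8.8% of all rows, 4.38% higher and 4.42% lower. Every KO library was below every wild-type library for Mkln1os and Tomm6os, and for none of the 13 was every KO library above, where over all rows the groups did not overlap for 14.8%, 7.3% higher and 7.49% lower in KO. Mkln1os, which shares its start region with the muskelin gene Mkln1, was at 0.357, 0.965 and 0.988 FPKM in the wild type against 0, 0.0716 and 0.0326 FPKM in KO, or 19, 52 and 55 reads against 0, 4 and 2. Tomm6os, antisense to the start of a gene of the mitochondrial import pore, was at 0.263, 0.650 and 0.467 FPKM in the wild type against 0.0132, 0 and 0.114 FPKM in KO, or 14, 35 and 26 reads against 1, 0 and 7.

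Both had 14 reads or more in each wild-type library and 7 or fewer in each KO library. Without the filter the log2 changes of Mkln1os and Tomm6os were -0.75 ± 0.20 (SE) and -0.48 ± 0.16, with limma adjusted p of 0.30 and 0.446. The log2(FPKM + 1) scale understates changes of genes this low. Among their partners, Mkln1 was at 2.35 ± 0.834 and 2.97 ± 0.292 FPKM (SD, n = 3) and Tomm6 at 0.0973 ± 0.0843 and 0.145 ± 0.149 FPKM. Of the exon bases of Tomm6, 84.2% are also exon of other annotated genes, and of those of Tomm6os 51.3% are; the handling of reads in such exons is not given in the sources used here. Pitpnm2os2, in the gene of a phosphatidylinositol transfer protein, had groups that overlap, at 0.0145, 1.87 and 0.969 FPKM in the wild type against 0.0102, 0.0828 and 0 FPKM in KO. Over all 39 members without the filter, 25 were lower and 14 higher in KO by value, with a median log2 change of -0.20 beside -0.014 over all rows, of which 48.1% were higher.

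**Figure D2:**
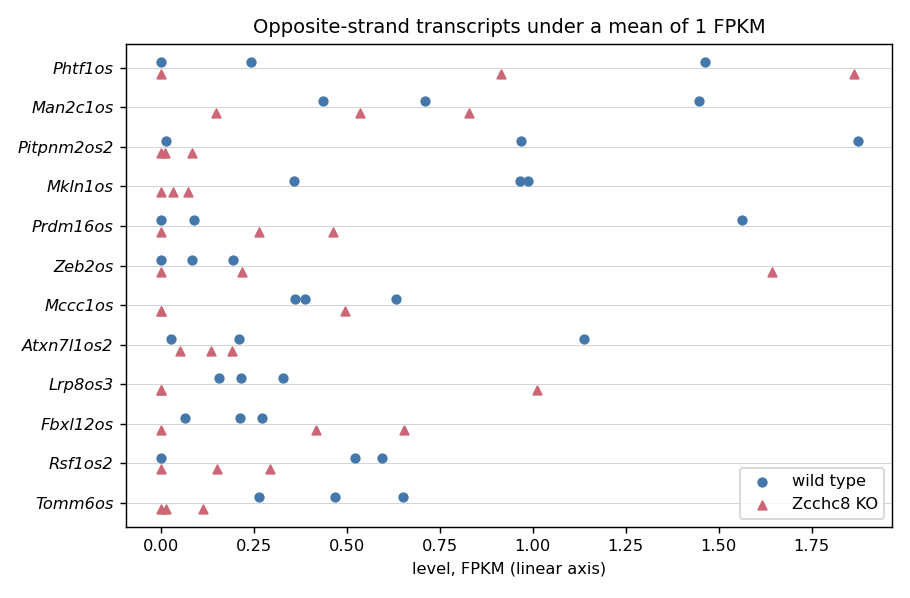
Level in FPKM, on a linear axis, of 12 opposite-strand transcripts with a mean under 1 FPKM, with 1 point per library (circles, 3 wild type; triangles, 3 Zcchc8 KO). In Mkln1os and Tomm6os all triangles lie at or near 0, to the left of all circles.

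Of the 31 partners above the filter none passed an adjusted p of 0.05, where 0.228% of all tested genes did. At an unadjusted p of 0.05, 4 differed, 2 in each direction, beside 9.2% of all tested genes (4.87% higher, 4.33% lower). By value 16 were higher and 15 lower, where 50.2% of all tested genes were higher, and the median log2 change was 0.00016. The groups did not overlap for 2 higher and 5 lower, beside the 8.24% and 6.99% of all tested genes. Cebpz, a nucleolar factor of ribosome assembly, was at 18.1, 18.0 and 18.7 FPKM in the wild type against 12.5, 13.0 and 13.1 FPKM in KO. All KO libraries were lower, with a log2 change of -0.47 ± 0.18 (SE) and a limma adjusted p of 0.481. Hoxb5 was at 3.46, 0.981 and 4.04 FPKM in the wild type against 0.698, 0 and 0.758 FPKM in KO, with a log2 change of -1.30 ± 0.46 and a limma adjusted p of 0.43; all KO libraries were lower, and the groups of Hoxb5os overlapped. Rab10, a small GTPase of membrane traffic, was at 27.4, 32.8 and 26.3 FPKM in the wild type against 48.7, 48.0 and 32.3 FPKM in KO, which gives a log2 change of 0.54 ± 0.20 with a limma adjusted p of 0.45. Fbxl12, an F-box gene, was at 2.77 ± 1.24 and 5.90 ± 2.06 FPKM (SD, n = 3), with a limma adjusted p of 0.505, and 37.1% of its exon bases are shared with other genes. Unc45b, a myosin chaperone gene below the filter, was at 1.33, 1.68 and 1.45 FPKM in the wild type against 0.476, 0.047 and 0.246 FPKM in KO, whereas Unc45bos inside it ran from 0.445 to 2.76 FPKM and from 0.0298 to 7.27 FPKM.

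The relation between a transcript and its partner differed from pair to pair. In FPKM, 11 members were above their partner in all 6 libraries, 15 were below it in all 6, and 13 changed order between libraries. The median ratio of member to partner over the 39 pairs was 0.486. The members above their partner included Epb41l4aos and Plxna4os1, whose partners were nearly silent, Brip1os at 11.3 FPKM against 1.82 FPKM for Brip1, and Wdr83os at 39.8 FPKM against 10.3 FPKM for Wdr83. Of the exon bases of Brip1os, 20.2% are also exon of Ints2 or Med13, and the handling of reads there is not given. Across the 39 pairs the mean levels of member and partner on the log2(FPKM + 1) scale had a Pearson correlation of 0.18. Across the 21 pairs with both genes tested, the changes had a Pearson correlation of 0.16 and a Spearman correlation of 0.11; 5 pairs were higher in both genes, 6 lower in both and 10 opposite. Both correlations are descriptions, since all pairs come from the same 6 libraries and many share exon bases.

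**Figure D3:**
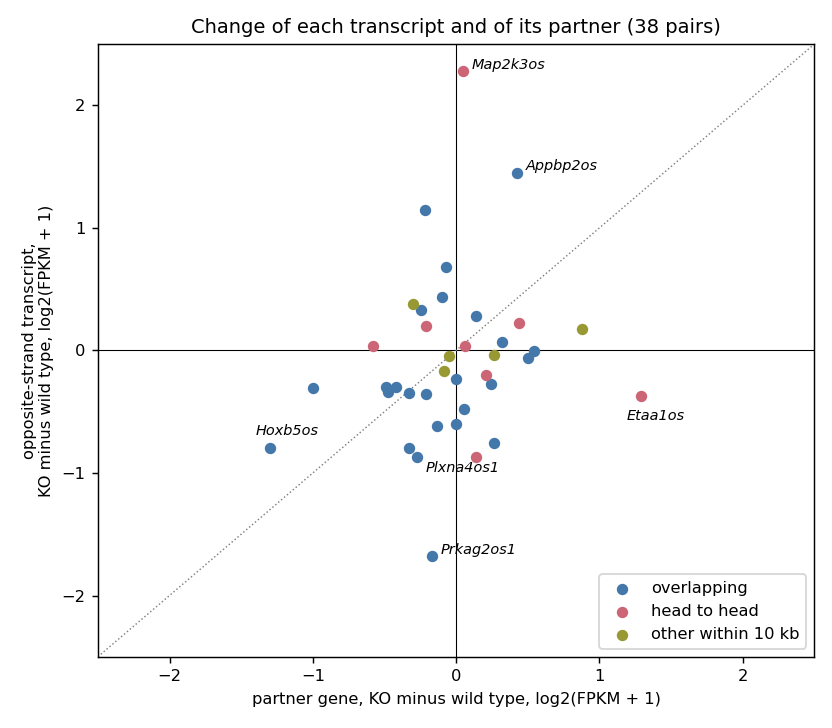
Difference between KO and wild type, as the mean of log2(FPKM + 1) over 3 libraries each, for each opposite-strand transcript (vertical axis) and its partner gene (horizontal axis), for 38 pairs coloured by arrangement. The dotted line marks equal change; the points show no common slope, and Map2k3os stands at 2.28 while Map2k3 stands at 0.046.

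The difference between member and partner within each library, log2(FPKM + 1) of the member minus that of the partner, removes what both genes share in a library. The values of KO and wild type did not overlap in 4 of the 26 pairs whose member was above the filter, 1 higher and 3 lower in KO. The levels of single genes did not overlap in 15.2% of all tested genes, a share near that of the 4 pairs, so the 4 are given as descriptions. With 3 libraries against 3 the exact two-sided permutation test cannot go below p = 0.1. Every pair whose groups do not overlap has that p by construction, so for the 4 it adds nothing to the separation. For Map2k3os the difference went from -3.85 to -1.62, a shift of 2.23 ± 0.76 (SE). For Etaa1os it went from -0.21 to -1.86, a shift of -1.66 ± 0.20. Etaa1 stood at 10.6, 6.48 and 0.796 FPKM in the wild type against 11.7, 15.3 and 9.90 FPKM in KO. Etaa1os and Etaa1 had the same order of libraries within each group, and the difference between them was larger in every KO library. The exons of Etaa1os and Etaa1 do not overlap each other or any other gene. For Plxna4os1 the shift was -0.60 ± 0.12, with its partner near 0. This fall comes from the 1 FPKM added before the logarithm. The mean of Plxna4 was 3.54-fold lower in KO and that of Plxna4os1 1.93-fold lower. In plain FPKM the ratio of the mean of Plxna4os1 to that of Plxna4 was therefore higher in KO. For Pigbos1 the shift was -0.52 ± 0.14. Pigb, a mannosyltransferase gene of GPI anchor synthesis, stood at 0.647 ± 0.125 and 0.969 ± 0.357 FPKM (SD, n = 3), and 22.04% of the exon bases of Pigbos1 lie in its exons.

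**Figure D4:**
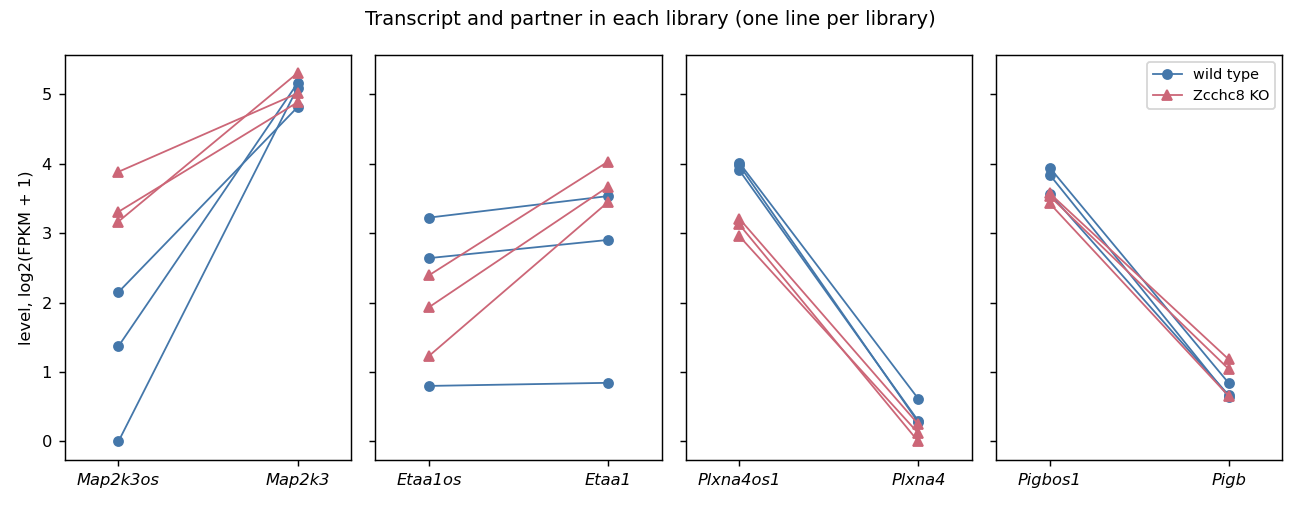
Level on the log2(FPKM + 1) scale of the opposite-strand transcript (left of each panel) and its partner gene (right) in the 4 pairs whose difference separated the groups, with 1 line per library (circles, wild type; triangles, Zcchc8 KO). Map2k3os is above the wild type in all KO libraries while Map2k3 coincides, and in the Etaa1 pair the 3 KO lines rise more steeply than the 3 wild-type lines.

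Other noncoding classes give the setting. Among the annotated antisense genes that are not members, 134 were in the table and 79 were tested. None passed an adjusted p of 0.05, 3 were higher and 11 lower at an unadjusted p of 0.05, and the median log2 change was -0.22. Over all tested genes 4.87% were higher and 4.33% lower at that threshold. Bidirectional promoter lncRNAs outside the members had 23 tested, with 2 higher and 1 lower at an unadjusted p of 0.05 and a median of -0.11. The 88 other lincRNAs had 6 in each direction and a median of 0.0035, with 1 passing an adjusted p of 0.05, and the 11 small nucleolar RNA host genes (Snhg) had none in either direction. Of 24 tested genes of the exosome and its nuclear adaptors, none passed an adjusted p of 0.05 and 1 was lower at an unadjusted p of 0.05.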

How the data were processed

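The authors deposited FPKM per gene symbol for 6 libraries. The submitters' processing notes list fastp, Bowtie2, featureCounts and mm10 without versions. Not given in the sources used here: the annotation, strand use and the treatment of reads in overlapping genes. Groups and replicate numbers came from the sample titles. Symbols were matched to GENCODE M21 for 36 members directly and for 3 through RefSeq synonyms. Reads were recovered as FPKM times exon length, in whole multiples of 1 step per library; the totals ran from 18059318 to 25709663. They carry no molecular identifiers, and amplified cDNA repeats molecules.

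Genes whose mean reached 1 FPKM were tested on log2(FPKM + 1) in limma 3.58.1 (R 4.3.3) with a mean-variance trend, two-sided, at an adjusted p of 0.05. Every p-value not called exact is from this fit. The difference from the partner was tested by an exact permutation test in scipy 1.17.1. The fit was tested on simulated data. Alternatives changed the pseudocount, filter, scaling, variance trend, block and libraries, or used limma-voom on recovered reads. Figures were drawn with matplotlib 3.10.9.

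Named are Zcchc8, the 20 members of highest mean level and their partners, and members or partners with an unadjusted p under 0.05 or groups that do not overlap; some of these are given only in counts, and other names were chosen after their values were seen. Members and lists were chosen with earlier results of these data known. The values of 1 member are not reported here.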

Additional observations from a re-analysis of the deposited data

How the results depend on the processing

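No opposite-strand transcript and no partner gene passed an adjusted p of 0.05 in any of the 13 alternative fits, which differed in pseudocount, filter, scaling, variance trend, block, libraries or use of limma-voom. For Map2k3os the log2 change lay between 1.69 and 4.31 over them, with limma adjusted p from 0.141 to 0.496, and for Plxna4os1 between -0.95 and -0.80, with adjusted p from 0.167 to 0.45; both had an unadjusted p under 0.05 in all 13. Appbp2os did so in 7 of 12 and Prkag2os1 in 5 of 12. Tested members, tested partners and Zcchc8 made up 58 genes. Among these the sign held in 673 of 721 comparisons with an alternative, and 26 genes changed sign at least once. Members with an unadjusted p under 0.05 numbered 4, and 2 with a mean of at least 5 FPKM, 2 with limma-voom and 2 among the members whose exons overlap the partner's by at most 10%, an alternative chosen after the data were seen. With 1 library left out there were 3 to 6. Partners at that threshold numbered 4, and 2 with a mean of at least 5 FPKM and 1 to 2 with 1 library left out. Pairs whose difference separated the groups numbered 4, and 3 with a pseudocount of 0.1 FPKM, where Plxna4os1 dropped out. They numbered 3 with a mean of at least 5 FPKM and 7 with no filter on low values. With 1 library left out they numbered 4 to 9, where fewer libraries separate more easily by construction. Over all genes there were 27 calls, and 8 without the trend, 8 with limma-voom and 11 to 19 with 1 library left out. With the replicate number as a block there were 11. Same-numbered libraries were correlated at 0.024, 0.0071 and 0.0037 in their deviations from group means, and not every library was closest to its own number. Values this small, with 3 libraries per group, cannot tell whether the numbers mark a pairing. Low reads limit Mkln1os and Tomm6os, which were fitted only without the filter.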
